A study of Mus musculus with 13 samples.

Results

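The 5 carbonic anhydrase genes followed here in mouse foregut epithelium were Car2, Car4, Car6, Car12 and Car13. They were chosen by their symbols, with the highest-mean probe set of each gene taken, and they were selected on measured values, namely the difference between control forestomach and control esophagus, with earlier results of all 4 groups known. They are 5 of the 16 carbonic anhydrase genes on the array and 5 of its 19934 genes. Each of the 16 had 1 probe set.

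Epithelium was peeled with dispase and measured on 13 Affymetrix gene arrays. The flox/flox groups were L2-Cre/p120 flox/flox, in which Cre recombinase acts on floxed alleles of Ctnnd1, the gene of p120-catenin, and the controls were Cre/p120 +/+, so all animals carried Cre, on a C57Bl/6 and 129 mixed background. The groups were forestomach masses of flox/flox animals 412, 426 and 510, forestomach of control animals 214, 216 and 217, esophagus of flox/flox animals 193, 307, 313 and 335, and esophagus of the same 3 control animals. The L2 promoter is used in mice to drive transgenes in the squamous epithelium of the mouth, esophagus and forestomach. The flox/flox forestomach was sampled as masses throughout, which means that genotype and mass cannot be told apart; ages and treatments are not stated.

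Carbonic anhydrases are zinc enzymes that interconvert carbon dioxide and water with bicarbonate and a proton. Family members differ in where they act: Car2 and Car13 work in the cytosol, Car4 is held on the cell surface by a lipid anchor, Car12 spans the membrane with its active site outside the cell, and Car6 is secreted and known from saliva. The forestomach of the mouse is lined, like the esophagus, by a keratinized squamous epithelium, in which such enzymes serve the handling of acid and bicarbonate.

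The values are log2 intensities, the base-2 logarithm of the array signal, and a gene was tested if it was above 5 on at least 3 arrays. A gene was called at a limma adjusted p under 0.05 over the 15875 genes tested. Array medians ran from 65.3 to 72.4 in linear intensity, and the small number of arrays limits the precision. Ctnnd1 lay at 9.51 to 9.91 in masses, against 10.14 to 10.40 in control forestomach, and at 9.95 to 10.13 in flox/flox esophagus, against 10.21 to 10.50 in control esophagus; which exons its probes read is not stated. Markers of squamous epithelium averaged 11.21 to 11.77 on all arrays. The 12 markers of glandular stomach averaged 10.90 in mass 426, against 5.64 and 6.00 in masses 412 and 510 and 5.43 to 5.78 on the other arrays, and 13 skeletal muscle markers averaged 8.22 in control esophagus 214 and 8.01 and 9.37 in flox/flox esophagus 307 and 335, against 5.67 to 6.43 elsewhere. Markers of neutrophils averaged 6.70 to 7.68 in masses, against 5.31 to 5.82 in control forestomach. Macrophage and monocyte markers averaged 6.75 to 7.64 in masses, against 6.23 to 6.35. Fibroblast and matrix markers averaged 7.43 to 9.01 in masses, against 6.79 to 7.53. On esophagus arrays they averaged 10.34 in control 214 and 9.14 and 9.58 in flox/flox 307 and 335, against 6.65 to 6.85 on the rest. In such peeled tissue, fewer cells of a type and less RNA per cell cannot be told apart.

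Car2, the abundant cytosolic enzyme, was high in forestomach and near or below the filter level in esophagus. It had 10.63, 11.93 and 11.53 in masses 412, 426 and 510, against 11.19, 11.53 and 11.44 in control forestomach 214, 216 and 217. It had 4.54, 4.22, 5.68 and 4.79 in flox/flox esophagus 193, 307, 313 and 335, against 3.72, 3.95 and 4.39 in control esophagus 214, 216 and 217. All 6 forestomach arrays stood far above all 7 esophagus arrays, and among the esophagus arrays flox/flox animal 313 alone was above the level of 5. Car2 passed the filter through its forestomach arrays.

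The difference between control tissues was used to choose the genes and is given without a test. All 3 control esophagus arrays were below the level of 5, so only a lower bound holds: with esophagus values below 5 set to 5, Car2 was at least 83.7-fold higher in control forestomach than in control esophagus. Set in the same way, it was at least 73.4-fold higher in masses than in flox/flox esophagus. That value is also a description, since the gene was chosen for its forestomach level and passed the filter through it, and tissue and mass cannot be told apart there.

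**Figure D1:**
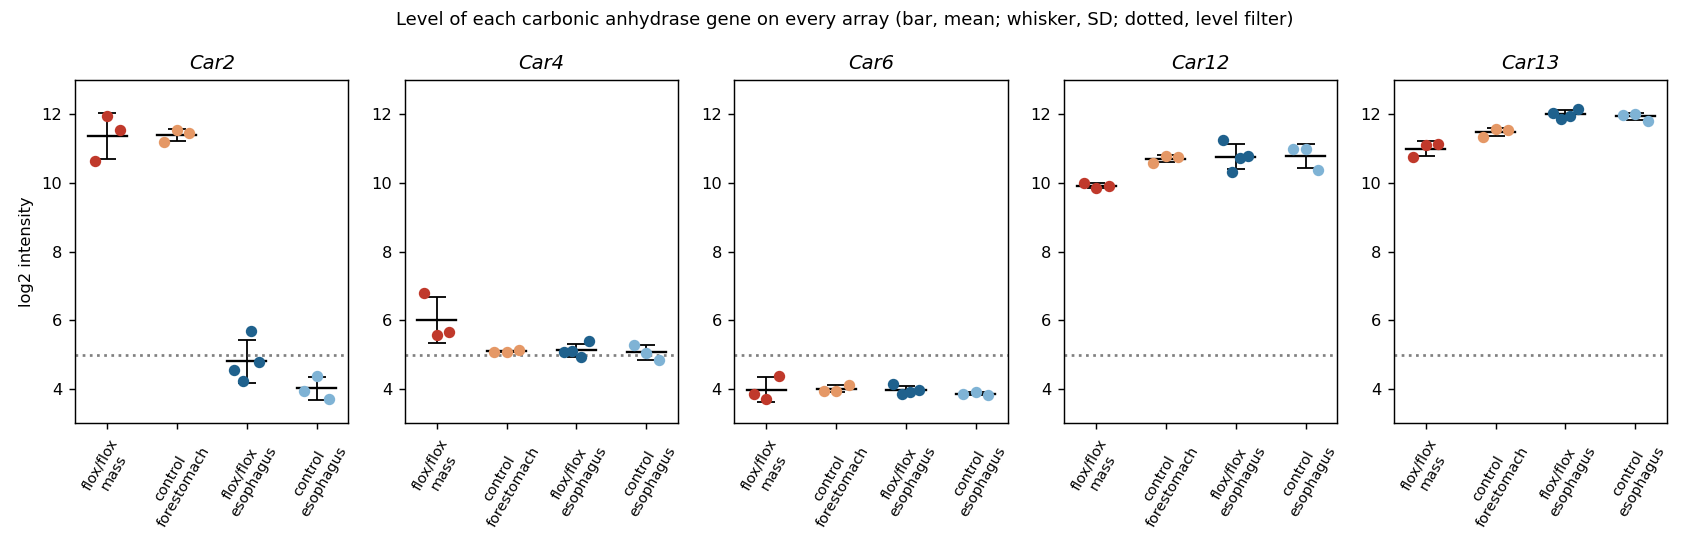
Log2 intensity of Car2, Car4, Car6, Car12 and Car13 on each of the 13 arrays, by group; points are arrays and bars the group means with the SD. Car2 separates forestomach from esophagus, while Car12 and Car13 of the 3 masses lie below all 3 control forestomach arrays and Car4 of the 3 masses lies above them.

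Between genotypes Car2 passed no test. In masses it averaged 11.37 ± 0.67 (SD, n = 3), against 11.39 ± 0.18 (SD, n = 3) in control forestomach, a difference of -0.02 (95% interval -0.83 to 0.79, limma adjusted p = 0.981). Mass 426, with the markers of glandular stomach, was the highest of the 3, and without it the difference was -0.30 (adjusted p = 0.686). In flox/flox esophagus it averaged 4.81 ± 0.62 (SD, n = 4), against 4.02 ± 0.34 (SD, n = 3) in control esophagus, at levels near the filter and with overlapping groups (difference 0.79, limma adjusted p = 0.702).

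Car13, the other cytosolic member, was high in both tissues. It had 10.75, 11.11 and 11.12 in masses 412, 426 and 510, against 11.35, 11.57 and 11.53 in control forestomach 214, 216 and 217. It had 12.03, 11.85, 11.95 and 12.14 in flox/flox esophagus, against 11.81, 11.98 and 12.01 in control esophagus, in the animal order given above. The masses held the 3 lowest values of all 13 arrays and did not overlap control forestomach.

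Car13 fell by 0.49 in masses (SE 0.12, 1.40-fold, limma adjusted p = 0.0282, 3 of 3 masses below every control). In esophagus the genotypes differed by 0.06 (95% interval -0.19 to 0.31, limma adjusted p = 0.997). Masses lay below flox/flox esophagus (difference -0.999, SE 0.12, limma adjusted p = 0.000793). Nothing is read from that call, since the control tissue difference used to choose the genes already had this direction. Tissue and mass cannot be told apart there either. In control tissue, as a description, forestomach was lower than esophagus by 1.37-fold, with -0.46, -0.41 and -0.48 within animals 214, 216 and 217. The fall in masses was lost without mass 412 (-0.37, adjusted p = 0.0767) and without control forestomach 216 or 217 (adjusted p = 0.102 and 0.0994), and in a fit of the forestomach arrays alone (-0.49, adjusted p = 0.120).

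In the RefSeq annotation of GRCm38.p6 the genes run in the order Car13, Car1, Car3 and Car2 on chromosome 3, with only pseudogenes and a noncoding RNA gene between them. Among these 4 genes, Car2 alone was far higher in control forestomach than in control esophagus. Car1, a cytosolic enzyme known from red cells and colon, lay between 4.96 and 5.57 on all arrays.

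Car12, the membrane-spanning enzyme, was also high in both tissues. It had 9.99, 9.84 and 9.92 in masses 412, 426 and 510, against 10.59, 10.77 and 10.75 in control forestomach 214, 216 and 217. It had 11.23, 10.32, 10.71 and 10.79 in flox/flox esophagus 193, 307, 313 and 335, against 10.38, 10.98 and 10.98 in control esophagus 214, 216 and 217. The masses were the 3 lowest arrays of the 13, and esophagus genotypes overlapped.

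Car12 fell by 0.79 in masses (SE 0.21, 1.72-fold, limma adjusted p = 0.0336), with all 3 masses below all 3 controls. In esophagus the genotypes differed by -0.01 (95% interval -0.44 to 0.41, limma adjusted p = 0.999). The lowest array of each esophagus genotype, flox/flox 307 and control 214, carried the skeletal muscle markers. Flox/flox 335, where these markers were highest, had Car12 at 10.79, above flox/flox 313 at 10.71. Without these 3 muscle-rich arrays (flox/flox 307 and 335 and control 214) the difference was -0.0037 (adjusted p = 0.9999). These 3 arrays also had high fibroblast and matrix markers. Masses lay 1.80-fold below flox/flox esophagus (difference -0.85, SE 0.20, limma adjusted p = 0.0260), a call lost without mass 426 or 510 or flox/flox esophagus 193, 313 or 335. Control tissues differed by -0.08, with 0.20, -0.21 and -0.22 within animals 214, 216 and 217, so neither sign held in all 3. The call in masses was lost without any 1 of the 6 forestomach arrays (adjusted p 0.0556 to 0.105), with the difference at -0.84 to -0.75, and with array weights (-0.82, adjusted p = 0.0726).

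The start region of Car12, Car4 and Car6 is shown here because only these 3 members have an entry in the promoter set used. Each window is from RefSeq (GRCm38.p6) and holds 300 bases around the gene start, mostly before it, 5′ to 3′ on the gene's strand. The windows are chr9:66713436-66713735 (plus strand) for Car12, chr11:84957504-84957803 (plus strand) for Car4 and chr4:150201086-150201385 (minus strand) for Car6. Capitals mark matches, on either strand, to ACGTG (a core read by hypoxia-inducible factors) and its variant GCGTG (also such a core), the TATA box TATAAA and the GC box GGGCGG (read by Sp factors), the AP-1 motif TGANTCA, and the E-box CACGTG (which contains ACGTG).
Car12: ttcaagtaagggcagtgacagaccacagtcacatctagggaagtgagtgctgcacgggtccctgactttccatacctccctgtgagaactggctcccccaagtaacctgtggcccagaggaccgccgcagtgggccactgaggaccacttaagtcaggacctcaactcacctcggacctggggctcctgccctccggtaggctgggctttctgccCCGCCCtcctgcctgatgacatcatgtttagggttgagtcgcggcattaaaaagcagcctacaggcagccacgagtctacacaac
Car4: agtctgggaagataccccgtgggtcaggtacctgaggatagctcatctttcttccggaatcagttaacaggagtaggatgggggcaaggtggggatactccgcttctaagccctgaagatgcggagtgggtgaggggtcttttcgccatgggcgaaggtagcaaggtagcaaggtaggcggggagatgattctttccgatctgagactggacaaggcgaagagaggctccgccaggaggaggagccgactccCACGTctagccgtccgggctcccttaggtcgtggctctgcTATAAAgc
Car6: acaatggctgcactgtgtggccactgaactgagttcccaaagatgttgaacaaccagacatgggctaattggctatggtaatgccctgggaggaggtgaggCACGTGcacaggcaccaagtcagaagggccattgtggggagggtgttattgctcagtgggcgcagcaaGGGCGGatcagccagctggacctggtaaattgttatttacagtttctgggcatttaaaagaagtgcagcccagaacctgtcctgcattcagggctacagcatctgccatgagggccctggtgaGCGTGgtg
Car12 held only a GGGCGG match, read on the opposite strand 35 bases before the start; 35.7% of 32851 promoters hold one. Car4 held ACGTG, on the opposite strand, and TATAAA, and 19.6% and 13.6% of promoters hold these. Both lay after the annotated start, from positions 3 and 43, so this TATAAA is not placed before the start. Car6 held CACGTG, which is in 7.15% of promoters, with ACGTG inside it, as well as GGGCGG and GCGTG. The windows of Car12 and Car4 held neither TGANTCA (in 7.81% of promoters) nor GCGTG (in 32.4%). These matches describe letters only.

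Car4, the surface-anchored enzyme, was near the filter level in 3 of the 4 groups. It had 6.79, 5.58 and 5.66 in masses 412, 426 and 510, against 5.09, 5.07 and 5.12 in control forestomach 214, 216 and 217. It had 5.07, 5.11, 4.93 and 5.39 in flox/flox esophagus 193, 307, 313 and 335, against 4.86, 5.29 and 5.06 in control esophagus 214, 216 and 217. The masses were above every other array, and mass 412 stood apart from the other 2 masses.

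Car4 rose by 0.92 in masses (SE 0.26, 1.89-fold, limma adjusted p = 0.0435). Without mass 412 the difference was 0.53 (adjusted p = 0.0533), and in a fit of the forestomach arrays alone the call was lost (0.92, adjusted p = 0.147). It was also lost on leaving out any 1 of the other arrays except mass 426, mass 510 and control esophagus 214 (adjusted p 0.0505 to 0.121). Endothelium, which is known to carry Car4 in capillaries, is covered by 9 markers that averaged 7.44, 7.32 and 6.44 in masses 412, 426 and 510, against 6.30, 5.64 and 5.59 in control forestomach 214, 216 and 217. In esophagus they averaged 7.17 in control 214 and 6.81 and 7.36 in flox/flox 307 and 335, with Car4 at 4.86, 5.11 and 5.39. On the other esophagus arrays the markers averaged 5.30 to 5.62. Over the 13 arrays Car4 and these markers correlated at r = 0.53 (description, arrays of shared groups). Markers of neutrophils and of macrophages and monocytes were also higher in masses and highest in mass 412. The part of endothelium or of these cells in the Car4 difference was not tested. In esophagus the genotypes differed by 0.06 (95% interval -0.47 to 0.59, adjusted p = 0.998), and the masses exceeded flox/flox esophagus by 0.89 (adjusted p = 0.0501), which did not pass. Control tissues differed by 0.03, with 0.23, -0.22 and 0.07 within animals 214, 216 and 217.

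Car6, the secreted enzyme, was at or below 4.38 on every array and never passed the filter, so it was not tested. Masses averaged 3.98 ± 0.35 (SD, n = 3), against 4.01 ± 0.11 in control forestomach, and flox/flox esophagus 3.98 ± 0.12 (SD, n = 4), against 3.87 ± 0.05 in control esophagus (SD, n = 3 each for controls). The 11 markers of salivary and submucosal gland averaged 4.37 to 4.77 on all arrays. Masses overlapped control forestomach, and flox/flox esophagus overlapped control esophagus.

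Of the 4 members tested, 3 were called in masses against control forestomach: Car4 higher and Car12 and Car13 lower. Over all genes tested 10.7% were called in that comparison, 366 higher and 1334 lower. With quantile normalization 31.8% of calls were higher, against 21.5% here. The members were chosen with earlier results of all 4 groups known, so their count beside the 10.7% is a description. In flox/flox against control esophagus 0 of the 4 were called, where 0.0126% of all genes were, and 1108 genes had an unadjusted p under 0.05. The test of whether the genotype changes differ between tissues called 0 of the 4, where 0.139% of all genes were called. Its values were -0.81 for Car2, whose esophagus levels were mostly below 5, 0.86 for Car4, -0.77 for Car12 and -0.55 for Car13, with limma adjusted p of 0.661, 0.429, 0.354 and 0.248, so a different change in the 2 tissues was not shown for any of them. In masses against flox/flox esophagus, Car12 and Car13 were called lower, where 5.06% of all genes were. Nothing is read from the call of Car13, nor from that of Car2 as higher there, where 1.95% of all genes were. The choice of both genes bears on that contrast. Animals 214, 216 and 217 gave both control tissues; with the animal as a replicate block the count of called members in masses stayed at 3, while the difference test called 145 genes in place of 22 and the esophagus test 0 in place of 2.

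**Figure D2:**
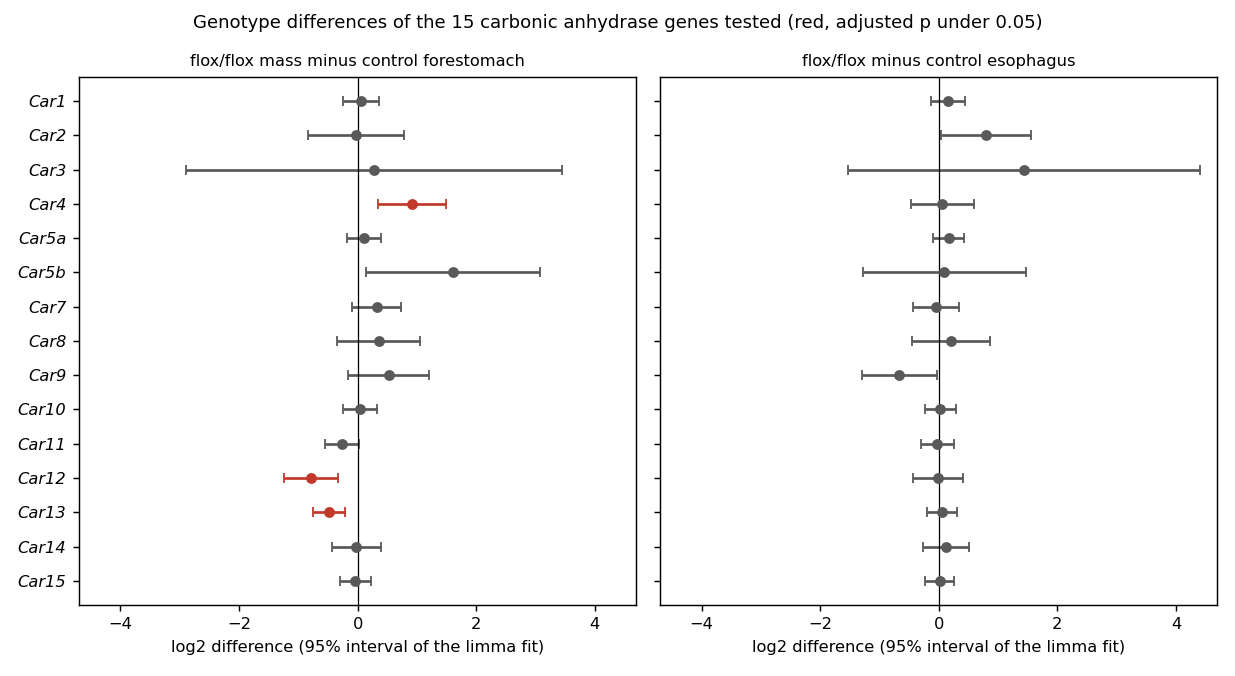
Log2 difference with its 95% interval for each of the 15 carbonic anhydrase genes tested, in masses against control forestomach and in flox/flox against control esophagus. Car4, Car12 and Car13 are the genes called in the masses, and none is called in the esophagus.

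The other 11 carbonic anhydrase genes were all tested and 0 were called in either genotype comparison. Over all genes, 10.7% were called in masses and 0.0126% in esophagus, so a count of 0 among 11 says little. Their median difference was 0.11 in masses and 0.09 in esophagus, against 0.01 for all genes in each. Car5b, a mitochondrial enzyme, had 9.52, 7.72 and 5.90 in masses 412, 426 and 510, against 6.31, 5.86 and 6.12 in control forestomach 214, 216 and 217. Mass 412 was the highest of all arrays and mass 510 lay within the controls, and the difference of 1.61 did not pass (SE 0.67, limma adjusted p = 0.160). Without mass 412 it was 0.71 (adjusted p = 0.403), and without mass 510 it was 2.52 (adjusted p = 0.00694).

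Car9, a membrane enzyme known as a hypoxia-response gene, had 5.53, 6.91 and 5.47 in the same masses, against 5.71, 5.15 and 5.47 in control forestomach. Mass 426 alone stood out, the array with the glandular stomach markers, and across 13 arrays Car9 and those markers correlated at r = 0.77 (description, arrays of shared groups). Without mass 426 the Car9 difference was 0.06 (adjusted p = 0.886). In esophagus Car9 had 5.36, 5.19, 5.30 and 5.40 in flox/flox, against 5.77, 6.26 and 5.90 in control, without overlap, and -0.67 did not pass (SE 0.29, limma adjusted p = 0.702).

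Car3, a muscle enzyme, had 4.74, 8.91, 5.07 and 10.87 in flox/flox esophagus 193, 307, 313 and 335, against 8.52, 4.75 and 4.62 in control esophagus 214, 216 and 217. The 3 high arrays were those with skeletal muscle markers, and across 13 arrays Car3 followed the 13 markers with r = 0.99. The genotypes differed by 1.44 with an SE of 1.36. Car11, a family protein without enzyme activity, differed by -0.26 in masses and did not pass (adjusted p = 0.254). Car8, also without activity, and Car7, a cytosolic enzyme, differed by 0.36 and 0.32 in masses without passing.

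**Figure D3:**
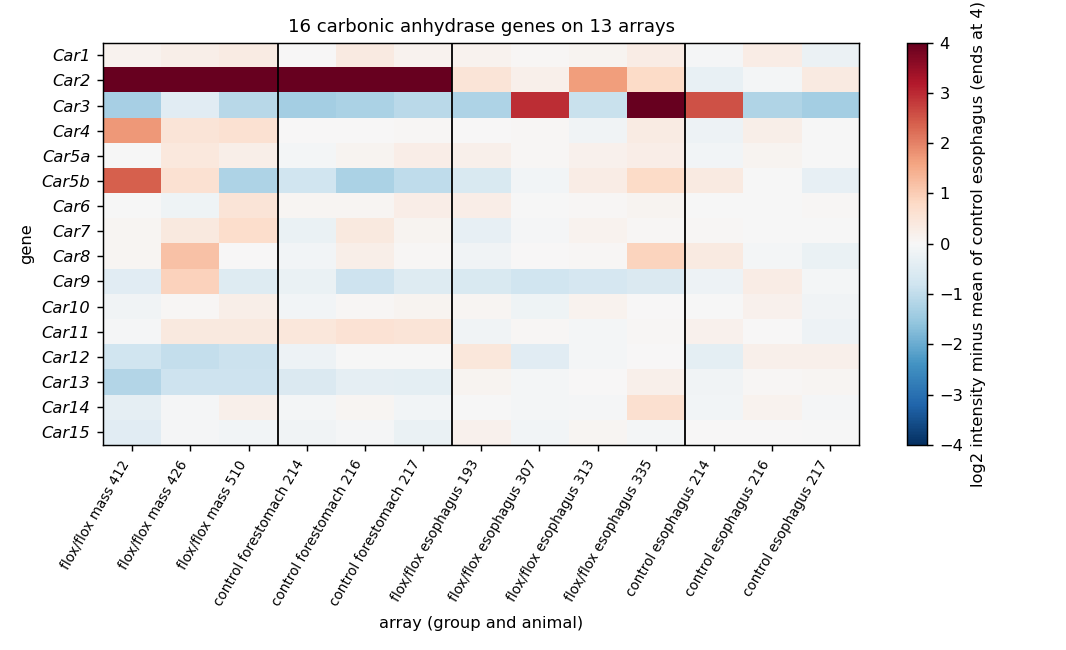
All 16 carbonic anhydrase genes (rows) on the 13 arrays (columns, grouped by tissue and genotype); colour shows the log2 difference from the control esophagus mean of each gene, with the scale ending at 4 either way. Car2 is higher on all 6 forestomach arrays, Car3 on 3 esophagus arrays, and Car12 and Car13 are lower in the 3 masses.

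Acid, bicarbonate and water handling around these enzymes was read from lists of transporters and pumps. Over all genes, 2.31% were called higher and 8.40% lower in masses. Of 12 proton and lactate extruders tested, 1 rose in masses and 0 fell: Slc16a3, a lactate and proton exporter, rose by 1.18 (limma adjusted p = 0.0175), with 8.56, 7.32 and 7.31 in masses against 6.38, 6.52 and 6.76 in control forestomach. Without mass 412, the highest, the difference was 0.76 (adjusted p = 0.00915), and the call was lost without control forestomach 214 or 216 (0.0737 and 0.0600) and with the forestomach arrays alone (0.102). The list's median was 0.65, against 0.01 for all genes. It holds Atp4a and Atp4b, the acid pump of glandular stomach, which had 11.51 and 10.25 in mass 426, against 6.15 and 6.11 in mass 412 and 6.32 and 6.73 in mass 510; their part in the median was not tested. Of 11 bicarbonate transporters 0 were called; the smallest p was that of Slc4a2, an anion exchanger, with a difference of 0.32 (adjusted p = 0.150). Slc4a4, a sodium bicarbonate cotransporter, had 4.83, 7.12 and 5.37 in masses 412, 426 and 510, against 4.97, 4.91 and 4.85 in control forestomach 214, 216 and 217, high in the mass with the glandular stomach markers, and its difference of 0.86 did not pass (adjusted p = 0.244).

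The vacuolar proton pump, which acidifies organelles, had 4 of 19 tested genes lower in masses and 0 higher, beside 8.40% and 2.31% of all genes, with a median of -0.31. Atp6v0a1 fell by 0.61 (limma adjusted p = 0.00219), Atp6v1c2 by 1.20 (0.00799), Atp6v0d1 by 0.55 (0.0123) and Atp6v0e2 by 0.87 (0.0128). For Atp6v1c2 the masses lay at 8.15, 8.05 and 9.04, against 9.56, 9.60 and 9.68 in control forestomach, without overlap. The call of Atp6v0a1 held in all 23 alternatives run; those of the other 3 were lost with the forestomach arrays alone (adjusted p 0.0563 to 0.0878), and those of Atp6v0d1 and Atp6v0e2 also without control forestomach 217 (0.0531 and 0.0565). Of 10 aquaporins, 1 fell: Aqp11, a channel known from the endoplasmic reticulum, by 0.69 (adjusted p = 0.0128), a call lost without control forestomach 214 or 216 (0.0604 and 0.0566), with array weights (0.158) and with the forestomach arrays alone (0.0730).

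Hypoxia-response genes, of which 20 were tested, had 4 higher and 1 lower in masses, beside 2.31% and 8.40% of all genes, with 16 above 0 and a median of 0.33. Pgk1, a glycolytic kinase, rose by 0.85 (limma adjusted p = 0.00214), Ndrg1, a stress-response gene, by 1.57 (0.00426) and Egln3, an oxygen-sensing prolyl hydroxylase, by 1.35 (0.0315). Adm, which encodes the peptide adrenomedullin, fell by 2.06 (0.00899), with 6.68, 7.19 and 7.48 in masses against 9.46, 10.03 and 8.03 in control forestomach. The calls of Pgk1 and Ndrg1 held in all 23 alternatives run. That of Egln3 was lost without any 1 of control forestomach 214, 216 and 217 (adjusted p 0.0656 to 0.113), without the 3 muscle-rich esophagus arrays (0.0581) and with the forestomach arrays alone (0.123), and without mass 412 its difference was 0.83 (0.0408). That of Adm was lost with array weights (-1.62, adjusted p = 0.214) and with the forestomach arrays alone (0.0671). P4ha2, a collagen prolyl hydroxylase, was the 4th to rise, by 0.63, and is named after its value was seen. In masses against flox/flox esophagus, 10 genes of this list were above 0 and 10 below, with a median of -0.02. Control esophagus averaged 9.76 for Ndrg1 and 11.18 for Egln3, against 9.51 and 10.55 in masses. For Pgk1 it averaged 10.91, against 11.24 in masses.

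**Figure D4:**
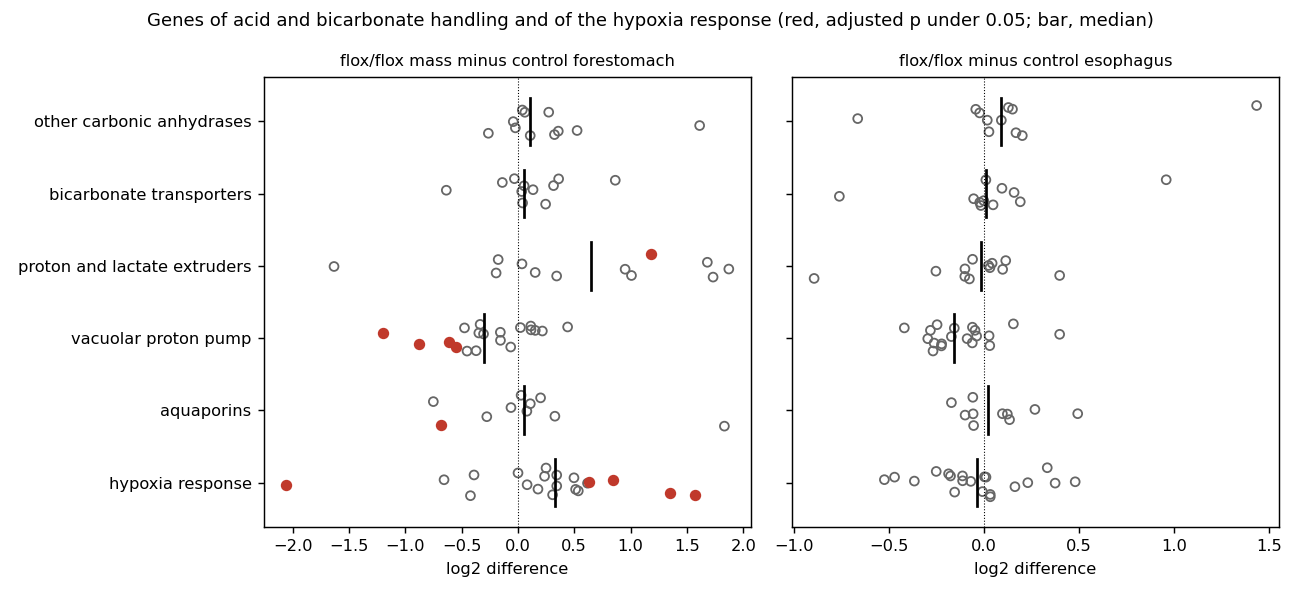
Log2 differences of the genes of each list in masses against control forestomach and in flox/flox against control esophagus; each point is a gene, red points are called and bars are medians. The vacuolar proton pump lies mostly below 0 in masses, and hypoxia-response genes mostly above 0.

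In esophagus 0 of the genes in these lists were called, where 0.0126% of all genes tested were. Within the lists, the smallest unadjusted p in esophagus belonged, for the bicarbonate transporters, to Slc4a11, a membrane transporter of the bicarbonate family, at 0.96 (adjusted p = 0.615), and Slc26a9, a chloride transporter, at -0.76 (0.692). Slc9a3, a sodium-proton exchanger, differed by -0.90 (0.795) and Hvcn1, a proton channel, by 0.40 (0.839). Atp6v0a2 and Tcirg1, pump subunits, differed by -0.30 and 0.40, Aqp3 and Aqp6 by 0.27 and -0.17, and P4ha1 and Ddit4 of the hypoxia list by -0.47 and 0.37. Vacuolar pump genes were below 0 in 15 of 19 in esophagus, with a median of -0.16, against 0.01 for all genes.

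**Figure D5:**
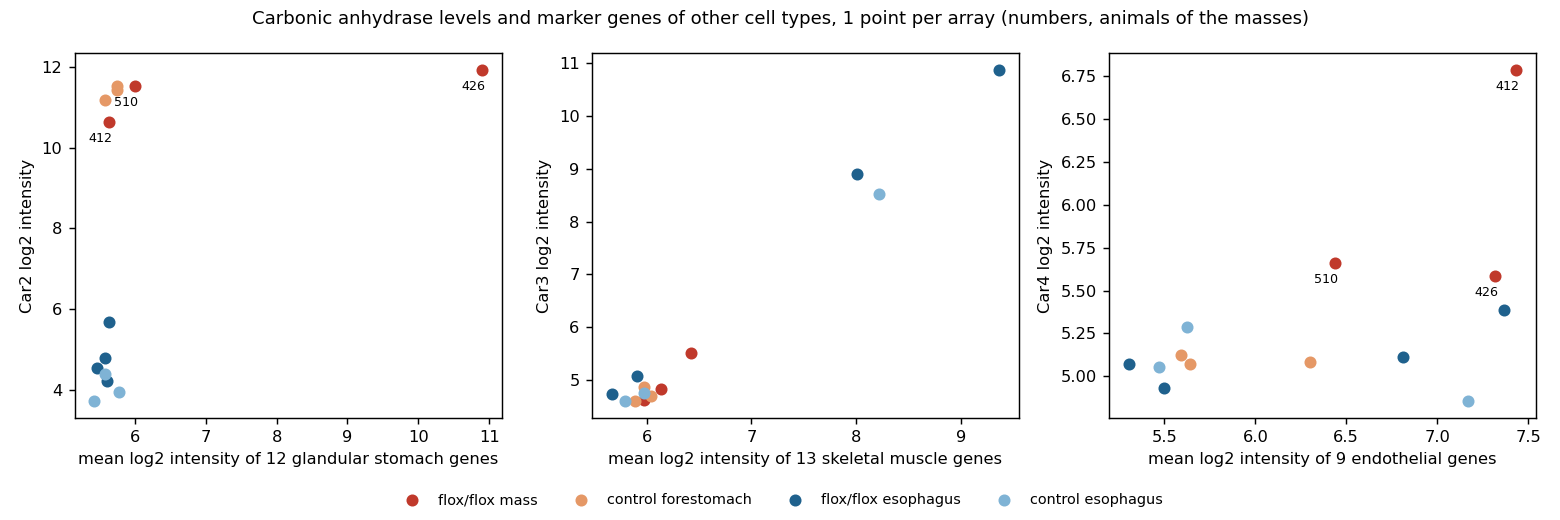
Log2 intensity of Car2, Car3 and Car4 (y axes) against the mean log2 intensity of glandular stomach, skeletal muscle and endothelial markers (x axes) on each of the 13 arrays; numbers name the animals of the masses. Car3 follows the muscle markers (r = 0.99), and the glandular stomach markers are high in mass 426 alone (10.90).

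Genes with the most similar pattern over the 13 arrays were taken by Pearson correlation, as a description in which arrays share groups; Car6, not tested, was left out. For Car2 these were Krt1 (r = 0.98) and Krt10 (r = 0.98), keratins of the suprabasal layers, and Prdm16 (r = 0.97), a transcription regulator. Within the 7 esophagus arrays the correlation with Krt1 was -0.56, and within the 6 forestomach arrays 0.80. For Krt10 these were 0.07 and 0.80, and for Prdm16 0.12 and 0.29. For Car4 they were Jdp2 (r = 0.97), Aldh1a3 (r = 0.97) and Ddah1 (r = 0.96), and without mass 412 these values were 0.87, 0.88 and 0.84. Within esophagus they were 0.70, 0.73 and 0.56, and within forestomach 0.996, 0.987 and 0.977. For Car12 they were Armh3, Rabgap1 and Mtm1 (r = 0.96, 0.93 and 0.93), with 0.88, 0.83 and 0.84 within esophagus and 0.99, 0.98 and 0.93 within forestomach. For Car13 they were Map3k20, Capns2 and Cyb561 (r = 0.97, 0.95 and 0.95). Within esophagus these correlations were 0.37, -0.19 and 0.33, and within forestomach 0.97, 0.94 and 0.88. Krt1, a keratin, had 12.12, 13.79 and 13.77 in masses 412, 426 and 510, against 13.87 to 13.93 in control forestomach.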

How the data were processed

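Gene expression in dispase-peeled epithelium was measured with 13 arrays. The authors deposited linear intensity values, made with GCRMA, per the submitters' processing notes; its version is not stated. No value lay below 1, and log2 of the deposited intensity was used. The table held 34729 probe sets, 21633 with 1 gene, 1306 with several and 11790 with none, and all 13 columns were mapped to samples. Each gene took its highest-mean probe set, and 4059 genes below a log2 level of 5 on at least 3 arrays were left out.

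The 4 group means were fitted to all arrays by limma 3.58.1 under R 4.3.3 (lmFit, then eBayes, 9 residual degrees of freedom), with Benjamini-Hochberg adjustment over 15875 genes. The script was tested on simulated data. Numbered samples are different animals, except that controls 214, 216 and 217 gave both tissues. Deviations from group means of the same animal's tissues correlated at 0.401, 0.398 and 0.315, against -0.425 to 0.129 between animals, so the animal was tried as a random replicate block. Members, lists and alternatives were chosen with earlier results of these data known. From each list up to 4 called genes were named by the smallest adjusted p, otherwise the 2 with the smallest p, and the 3 most correlated tested genes per tested member. Promoter sequences are from RefSeq.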

Additional observations from a re-analysis of the deposited data

Results flagged for a closer look

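Among 50 genes tested for an array that stands apart in flox/flox esophagus, the only group of 4, 3 were found, and chance gives about 1 in 20 groups. Car14, a membrane carbonic anhydrase, was at 5.57 in animal 335, against 4.86 to 4.92 in the other 3. Capns2 was at 10.04 in animal 307, against 9.86 to 9.89. Cyb561 was at 10.24 in animal 193, against 10.17 to 10.18. Animals 335 and 307 are 2 of the esophagus arrays with high skeletal muscle markers, while these markers averaged 5.67 in animal 193. The part of muscle in these values was not tested.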

How the results depend on the processing

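Changes in Car4, Car12 and Car13 in masses kept their direction under every alternative run, but their calls did not. The count of 3 members called was 1 with array weights and 1 with only the arrays of the 2 groups, and 0 to 3 leaving out each array; the replicate block left it at 3 and changed no member call. The count of listed genes called in masses was 11, against 19 with a filter of 7, 3 with only the forestomach arrays and 7 to 22 leaving out each array. Car4 in masses was at 0.92 without a filter (adjusted p = 0.0504), without the 3 muscle-rich esophagus arrays (0.0694) and with only the forestomach arrays (0.147), and at 0.53 to 1.13 leaving out each array. Car12 was -0.82 with array weights (0.0726) and -0.84 to -0.75 leaving out each array. Car13 was -0.50 with array weights (0.0503), -0.49 with only the forestomach arrays (0.120) and -0.56 to -0.37 leaving out each array. Against flox/flox esophagus, Car4 passed with a trended robust prior (0.89, adjusted p = 0.0467) and ranged over 0.50 to 1.10 leaving out each array. Car12 there was -0.81 with array weights (0.154), -0.85 with only the arrays compared (0.109) and -0.99 to -0.69 leaving out each array. The cause was not tested. Over all genes, the calls in masses numbered 1700, with 458 to 2238 under the alternatives; in esophagus 2, with 0 to 7; in the difference 22, with 5 to 373; and in masses against flox/flox esophagus 1112, with 107 to 2364. The share of higher calls in the difference was 59.1%, 44.4% with centring and 49.0% with quantile normalization. The fit with only the arrays compared gives no value for the difference, which uses all 4 groups. Levels near 5, such as those of Car4 and Car6, limit what the array resolves.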

Other observations

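In masses against flox/flox esophagus, which share the genotype, the listed genes called, chosen after their values were seen, included Aqp9, a channel for water and small solutes, higher by 1.78 (limma adjusted p = 0.00696), and Aqp3, a water and glycerol channel, lower (difference -0.74, adjusted p = 0.00632). Slc16a1, a lactate and proton carrier, was higher by 0.70 (adjusted p = 0.0102). Aqp9 averaged 8.47 ± 0.62 in masses, against 6.68 ± 0.59 in flox/flox esophagus (SD, n = 3 and 4). In control tissue, with no test, Aqp9 averaged 9.22 in forestomach, against 6.74 in esophagus, and Aqp3 11.52, against 11.71. By list, masses against flox/flox esophagus had 1 of 10 aquaporins higher and 1 lower, and 2 of 12 proton and lactate extruders higher. Bicarbonate transporters had 2 of 11 higher, the vacuolar pump 1 of 19 lower, and the hypoxia list 1 of 20 higher and 1 lower. Over all genes 1.95% were higher and 5.06% lower. Tissue and mass cannot be told apart in these calls.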
